A study of Mus musculus with 40 samples.

Results

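In mouse embryonic stem cells, 95 genes were higher on days 3 and 9 of a course, when Ctbp2 was high, and at most 1.5 times their starting level on day 18. They were chosen by their counts over the library total, scaled per 1000000 (CPM), in a time course whose samples are labelled Dox, out of 55276 gene rows. The rule asked for a day 3 mean of at least 2 CPM, for day 3 and day 9 means of at least 2 times day 0, and for a day 18 mean of at most 1.5 times day 0. Of the rows, 14063 reached 2 CPM on day 3, and 128 of these were also at least 2 times day 0 on days 3 and 9. Of those, 96 were at most 1.5 times day 0 on day 18. No lower limit was set for day 18, and some genes fell below day 0, such as Gm5514 (1.47 CPM on day 0 and 0.652 on day 18). Ctbp2 itself was 1 of the 96 and was set aside. The rule therefore fixed the size and the direction of the change on days 3, 9 and 18, and the values of those days are given as a description, with no test.

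All cells are E14tg2a, a mouse embryonic stem cell line grown in serum with leukaemia inhibitory factor, and RNA was counted per gene in 34 libraries held in 3 tables. The time course has 2 libraries each at days 0, 3, 9, 12 and 18 of cells with the genotype CtbpDKO, named iCt2 in the sample descriptions. The labels carry the word Dox and do not say when it was added or removed. The genotype table has 2 libraries each of WT, CtbpDKO (both Ctbp genes disrupted), DuxKO, Ctbp_DuxTKO (Ctbp and Dux disrupted), Dppa2KO and DKO_Dppa2KO, named Dppa2_DuxTKO in the titles and DKO_Dppa2_KO in the descriptions. The descriptions were followed, and Ctbp1 was near 0 in that pair. The Pramel7 table has 4 WT libraries, numbered 3 to 6, and 2 each of DuxKO, P7OE (Pramel7 overexpression), DuxKO_P7OE and P7KO (Pramel7 knockout). The labels name neither clones nor separate cultures, so p-values measure the spread between these libraries, which may be technical. In bulk RNA, fewer cells expressing a gene and less RNA per cell cannot be told apart.

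CtBP1 and CtBP2 are corepressors. They do not bind DNA themselves but are recruited through a short peptide motif by DNA-binding factors such as the zinc finger proteins ZEB1 and ZEB2 and KLF3, and they bring histone deacetylases, histone methyltransferases and the demethylase LSD1 to the target. A gene whose RNA goes up with Ctbp2 is therefore not the textbook target of a corepressor. DUX and DPPA2 are factors of the 2-cell program of embryonic stem cells, and PRAMEL7 is known for lowering UHRF1, the protein that guides maintenance DNA methylation.

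Ctbp2 marked the course. It stood at 58.9 and 57.2 CPM on day 0, 497 and 557 on day 3, 340 and 292 on day 9, 51.9 and 46.7 on day 12 and 51.2 and 54.6 on day 18. Ctbp1 was at or below 0.166 CPM in all 10 libraries, against 63.3 and 72.2 in WT. In the genotype table Ctbp2 was at 208 and 226 CPM in WT and still at 42.9 and 48.1 in CtbpDKO. A count per gene does not show which part of a transcript those reads came from. All Ctbp2 values of days 3 and 9 lay above both WT libraries, across separate tables. The labels name no group that separates Dox from the rise of Ctbp2, so their effects in the course cannot be told apart. Totals ran from 16674526 to 30169626 counts in the time course, from 19944644 to 36025046 in the genotype table and from 10123058 to 30135341 in the Pramel7 table. The 8 stem cell markers summed to 2481 to 2639 CPM on day 0, 2156 to 2199 on day 3 and 2651 to 2803 on day 9. They summed to 2666 to 2747 on day 12 and 2650 to 3085 on day 18, with none at or under 3 counts. The 8 feeder fibroblast markers summed to 12.5 to 15.4 CPM on day 0, 9.02 to 9.30 on day 3, 10.9 to 11.6 on day 9, 19.0 to 19.7 on day 12 and 20.5 to 24.2 on day 18, with 2 to 4 of the 8 at or under 3 counts. The 4 trophoblast markers summed to 20.4 to 20.5 CPM on day 0, 8.62 to 8.94 on day 3, 12.8 to 15.8 on day 9, 22.9 to 25.7 on day 12 and 20.7 to 21.9 on day 18. The stem cell, feeder and trophoblast sums were all lowest on day 3. The 4 primitive endoderm markers summed to 11.4 to 11.5 CPM on day 0 and 8.23 to 11.4 on day 3. They reached 12.2 to 14.2 on day 9, 20.2 to 22.4 on day 12 and 26.8 to 31.8 on day 18. Their sums on days 12 and 18 lay above those of day 0. The part of these cell types in the values below was not tested.

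**Figure D1:**
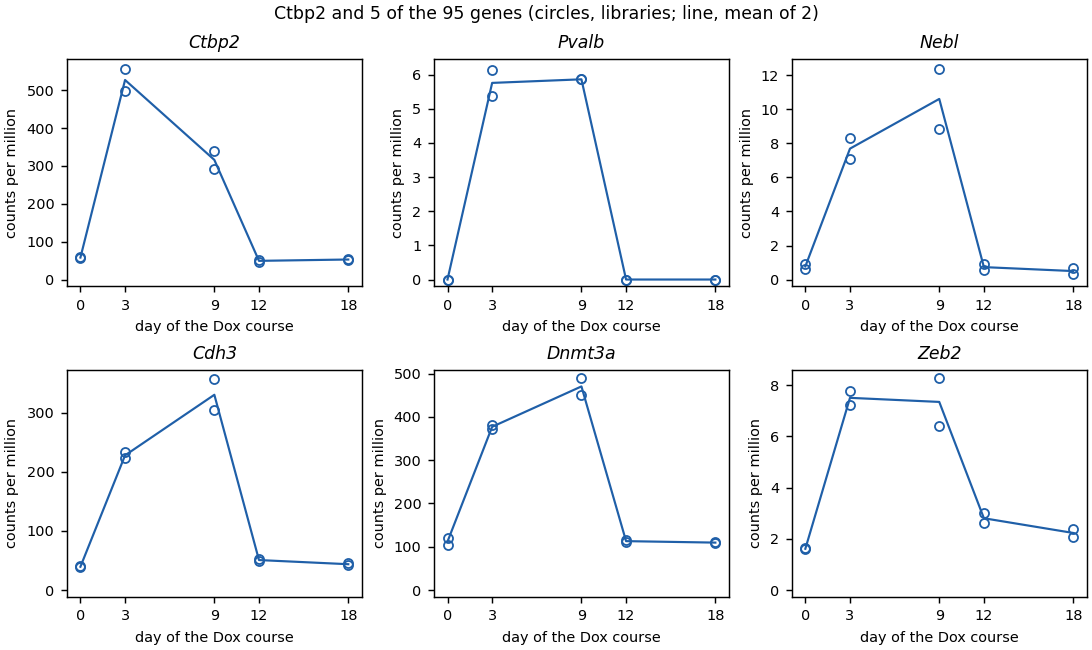
CPM (y axis) of Ctbp2 and of 5 of the 95 genes by day of the Dox course (x axis). Circles are libraries and the line joins the means of 2. Ctbp2 is highest on day 3 and Cdh3, Nebl and Dnmt3a on day 9, and Pvalb is at 0 on days 0, 12 and 18.

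Pvalb, which encodes the calcium-binding EF-hand protein parvalbumin of fast muscle and inhibitory neurons, was the gene with the largest ratio. It had no count in either library of day 0, 12 or 18, 5.37 and 6.15 CPM on day 3 and 5.86 and 5.86 on day 9. Against a floor of 3 counts per library on day 0, the day 3 mean was at least 41.4-fold higher and the day 9 mean at least 42.1-fold higher. It also had no count in any of the 12 libraries of the genotype table or the 12 of the Pramel7 table, WT included. So WT cells, with Ctbp2 at 208 and 226 CPM, showed no Pvalb reads, while course cells with Ctbp2 at 340 and 292 on day 9 did. Of the 24 EF-hand genes listed, 12 were at 2 CPM or more on day 3 and Pvalb was the 1 that reached 2 times day 0 on days 3 and 9.

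Nebl encodes nebulette, an actin-binding protein of the nebulin family found at the Z-disc of heart muscle. It was at 0.895 and 0.646 CPM on day 0, 7.07 and 8.33 on day 3, 12.4 and 8.88 on day 9, 0.540 and 0.920 on day 12 and 0.663 and 0.332 on day 18. Its 4 libraries of days 3 and 9 all lay above its other 6. In WT it was at 0.397 and 0.274 CPM and in CtbpDKO at 0.450 and 0.307, groups that overlapped. It was not called there (log2 fold change 0.15, adjusted p = 0.926, edgeR quasi-likelihood test, Benjamini-Hochberg). Flnc, which encodes the actin crosslinker filamin C, was the other of 14 nebulin-family and Z-disc genes at 2 CPM on day 3 to meet the rule. It went from 12.6 and 13.7 CPM on day 0 to 39.1 and 39.1 on day 3 and 60.9 and 55.2 on day 9. The 6 mesoderm and muscle markers summed to 0.603 to 1.29 CPM on day 0, 0.939 to 1.39 on day 3, 2.29 to 2.63 on day 9, 1.14 to 1.69 on day 12 and 0.199 to 0.442 on day 18. Between 2 and 5 of these 6 were at or under 3 counts on each day, and their part in the Pvalb and Nebl values was not tested.

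The sequences before both annotated starts of Pvalb are shown because this gene has the largest ratio to day 0. Those of Nebl, Rapgef4, Ncan and Adgrg1 are starts picked because they hold a motif match. Each is the 250 bases 5' of a start, taken from RefSeq promoter windows of GRCm38.p6 and written 5' to 3' on the gene's strand. Capitals mark the E-box CAGGTG of ZEB1 and ZEB2 or its reverse complement CACCTG, and the TATA box TATAAA or its reverse complement TTTATA.
Pvalb, first start (chr15:78206401-78206650, minus strand): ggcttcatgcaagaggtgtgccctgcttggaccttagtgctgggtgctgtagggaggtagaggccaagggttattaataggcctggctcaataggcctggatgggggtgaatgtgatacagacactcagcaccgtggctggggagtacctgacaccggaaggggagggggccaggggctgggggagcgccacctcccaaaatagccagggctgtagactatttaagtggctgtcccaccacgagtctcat
Pvalb, second start (chr15:78204238-78204487, minus strand): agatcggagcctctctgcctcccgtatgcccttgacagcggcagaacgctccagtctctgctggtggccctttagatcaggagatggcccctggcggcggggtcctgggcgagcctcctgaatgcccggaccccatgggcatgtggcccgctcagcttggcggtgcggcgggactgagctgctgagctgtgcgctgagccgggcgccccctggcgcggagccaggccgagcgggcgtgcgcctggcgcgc
Nebl, 1 of 4 annotated starts (chr2:17731135-17731384, minus strand): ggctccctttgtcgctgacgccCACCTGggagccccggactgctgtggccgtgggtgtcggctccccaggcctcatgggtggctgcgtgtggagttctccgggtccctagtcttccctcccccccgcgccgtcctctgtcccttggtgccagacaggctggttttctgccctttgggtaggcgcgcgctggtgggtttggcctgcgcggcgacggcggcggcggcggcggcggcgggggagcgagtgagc
Rapgef4 (chr2:71980965-71981214, plus strand): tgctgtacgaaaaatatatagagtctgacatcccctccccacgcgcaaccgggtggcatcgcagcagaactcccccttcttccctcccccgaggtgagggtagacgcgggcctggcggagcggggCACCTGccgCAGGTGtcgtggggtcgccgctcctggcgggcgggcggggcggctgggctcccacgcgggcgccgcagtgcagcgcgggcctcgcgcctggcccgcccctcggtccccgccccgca
Ncan (chr8:70120845-70121094, minus strand): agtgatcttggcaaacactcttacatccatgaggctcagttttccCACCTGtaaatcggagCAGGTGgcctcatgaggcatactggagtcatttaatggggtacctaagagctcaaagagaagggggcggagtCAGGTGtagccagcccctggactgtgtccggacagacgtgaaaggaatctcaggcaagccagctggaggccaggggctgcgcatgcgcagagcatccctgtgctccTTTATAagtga
Adgrg1, 1 of 2 annotated starts (chr8:94976859-94977108, plus strand): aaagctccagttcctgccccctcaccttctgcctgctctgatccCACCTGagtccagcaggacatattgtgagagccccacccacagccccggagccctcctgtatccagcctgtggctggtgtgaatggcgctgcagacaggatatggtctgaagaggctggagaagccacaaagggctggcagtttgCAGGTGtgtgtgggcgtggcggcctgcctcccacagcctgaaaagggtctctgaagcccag

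The 2 Pvalb sequences hold neither motif, Nebl holds 1 CACCTG, Rapgef4 holds CACCTG and CAGGTG close together, Ncan holds 1 CACCTG, 2 CAGGTG and 1 TTTATA, and Adgrg1 holds 1 CACCTG and 1 CAGGTG. The other 3 windows of Nebl and the other window of Adgrg1 hold no match. RefSeq windows of 300 bases, with 50 bases after the start, were found for 69 of the 95 genes. CAGGTG on either strand was in at least 1 window of 19 of the 69 genes (27.5%), against 22.6% of 27025 genes with a window. The CACCC box of KLF3 and KLF8, CCACACCC, was in 5.80% of the 69 genes and 4.09% of all genes. TATAAA was in 10.1% and 15.7%. The E-box and CACCC shares were near those of all genes. The median ratio of observed to expected CpG was 0.588 in the 97 windows of the 69 genes and 0.384 in all windows, and 49.5% against 35.8% of windows were above 0.6. All windows include those of genes that did not reach 2 CPM on day 3, as each of the 95 had to. The CpG difference was not compared among expressed genes only. These matches describe letters and not binding, and windows of 1 gene are not independent of each other.

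The other ratios were smaller. On day 3, with day 0 raised to 3 counts where lower, 9 of the 95 were at least 5 times day 0, 20 were between 3 and 5 times and 66 were between 2 and 3 times. The median ratio to day 0 was 2.55 on day 3 and 2.72 on day 9, and day 9 was above day 3 in 62 genes. In 91 genes all 4 libraries of days 3 and 9 lay above all 4 of days 0 and 18. The 4 with overlap were Nsmf, Cdk14, Prob1 and Rps12-ps13. The rule chose the 95 by the means of these same days, so this separation follows largely from the choice. The share over all genes was not computed. Day 3 means ran from 2.05 CPM to 377 CPM with a median of 5.63, and 41 genes were under 5 CPM. Just inside the rule's limits lay Faim2 (day 3 mean 2.05 CPM), Ccdc114 (day 3 at 2.001 times day 0), Mlycd (day 9 at 2.01 times day 0) and Tcaf1 (day 18 at 1.47 times day 0). Just outside lay Zfp629 (1.99 CPM), Sertad3 (1.998 times), Gm42939 (1.99 times) and Aldh1l2 (1.52 times).

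Day 12 was not used by the rule. Ctbp2 was by then at 0.850 times its day 0 mean, and 73 of the 95 genes were at most 1.5 times day 0, 22 were above, and the median was 1.28. For all 14063 genes at 2 CPM on day 3 the median was 1.06, and 448 were above 1.5 times. Day 12 shares its day 0 denominator with the rule, so these are descriptions. Of the 95, 5 genes, Col11a1, Cacng8, Duox1, Vgf and Tfap2a, were still at least 2 times day 0 on day 12. Col11a1, a fibrillar collagen chain, had 3.73 and 3.15 CPM on day 9, 1.80 and 1.95 on day 12 and 0.8289 and 0.795 on day 18. Rapgef4 was back by then, with 17.5 and 13.8 CPM on day 9 and 0.960 and 1.18 on day 12. In 86 genes the libraries of days 3 and 9 all lay above those of day 12. The rule chose the 95 for high means on days 3 and 9, so this too follows in part from the choice. Its share over all genes was not computed.

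The WT level gives a yardstick for these levels, although the tables were normalised separately and no test was made across them. Day 3 was within a factor of 2 of the WT mean of the genotype table in 46 genes, above it in 45 and below it in 4. For 25 genes day 0 was below WT by more than a factor of 2 and day 3 was inside that band. For 31 other genes day 0 was already inside the band and day 3 was above it. Day 0 of the course and CtbpDKO of the genotype table, the same labelled genotype, were within a factor of 2 in 85 of the 95.

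The independent question is what the 95 genes did when Ctbp was lost, in libraries that the rule did not use. In CtbpDKO against WT, 45 of the 95 genes were lower and 14 higher at an adjusted p under 0.05 (edgeR quasi-likelihood test, Benjamini-Hochberg adjustment over 21193 genes). That is 47.4% and 14.7% of the 95, beside 11.4% lower and 14.7% higher among all genes tested. In Ctbp_DuxTKO against DuxKO, 44 were lower and 20 higher, or 46.3% and 21.1%, beside 19.6% and 21.4% of all genes. In DKO_Dppa2KO against Dppa2KO, 32 were lower and 12 higher, or 33.7% and 12.6%, beside 15.2% and 15.2%. The 3 comparisons share no library. Pvalb, with no counts, was not tested, so 94 of the 95 passed the low-count filter. Over these 94 the median log2 fold change was -0.84, -0.71 and -0.54, against 0.01, 0.04 and 0.01 over all genes. The share called higher was close to the background in each, and the share called lower was above it in each. In every comparison here, all genes tested include genes that did not reach 2 CPM on day 3, as each of the 95 had to. Genes with few counts are harder to call in either direction. The shares were not compared among expressed genes only.

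Markers of other cell types also differed between these groups. The 4 primitive endoderm markers, all above 3 counts, summed to 11.6 to 12.8 CPM in WT and 20.3 to 22.6 in CtbpDKO, to 3.49 to 3.58 in DuxKO and 56.4 to 57.1 in Ctbp_DuxTKO, and to 11.2 to 11.6 in Dppa2KO and 6.02 to 7.67 in DKO_Dppa2KO. The 8 feeder fibroblast markers summed to 2.98 to 3.19 CPM in WT and 14.7 to 16.5 in CtbpDKO, to 3.04 to 3.52 in DuxKO and 8.24 to 11.1 in Ctbp_DuxTKO, and to 3.61 to 5.87 in Dppa2KO and 7.40 to 7.72 in DKO_Dppa2KO, with 3 to 6 of the 8 at or under 3 counts. The 4 trophoblast markers summed to 6.19 to 6.54 CPM in WT and 15.02 to 17.1 in CtbpDKO, to 11.4 to 12.2 in DuxKO and 13.8 to 19.5 in Ctbp_DuxTKO, and to 4.72 to 5.30 in Dppa2KO and 17.9 to 21.6 in DKO_Dppa2KO, with 0 or 1 of the 4 at or under 3 counts. The part of these cell types in the values of the 95 genes was not tested.

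**Figure D2:**
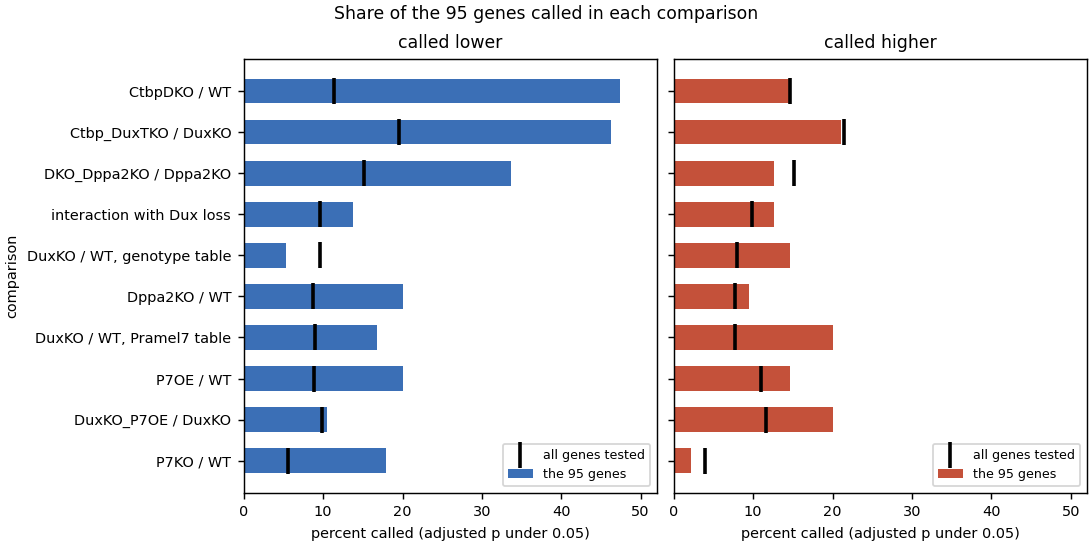
Percent of the 95 genes called lower (left) and higher (right) in each comparison (bars, x axis) and percent of all genes tested (black marks). In the 3 Ctbp losses at the top the bars for lower reach 47.4%, 46.3% and 33.7% and pass the marks, while those for higher lie near them.

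In all 3 comparisons 25 genes were lower (26.3% of the 95, beside 3.87% of all genes tested) and 5 were higher (5.26%, beside 5.72%). Another 15 were lower in exactly 2 (7.74% of all genes tested), 18 were called in none (41.3%) and 8 were lower in one and higher in another (4.21%). The 18 include Pvalb, which was not tested, while the 41.3% is over tested genes only. Gstm5, Lef1, Lef1os1 and Shf are in both the 15 and the 8. Of the 25, 8 lost at least 1 of their 3 calls in an alternative (Dtx4, Fras1, Hapln4, Naglu, Nova1, Plppr2, Prob1 and Prtg). The 25 include receptors (Smo, Fzd2, Sort1, Adgrv1), matrix and basement membrane proteins (Ncan, Hapln4, Fras1, Frem2, Col11a1), neuronal proteins (Cacng8, Nova1, Ptprn) and Usp11, Vash1, Dtx4, Slc4a8, Fignl2, Ccdc114, Igfbp4 and Prtg. These words group the genes by what their products are known for, after the values were seen.

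**Figure D3:**
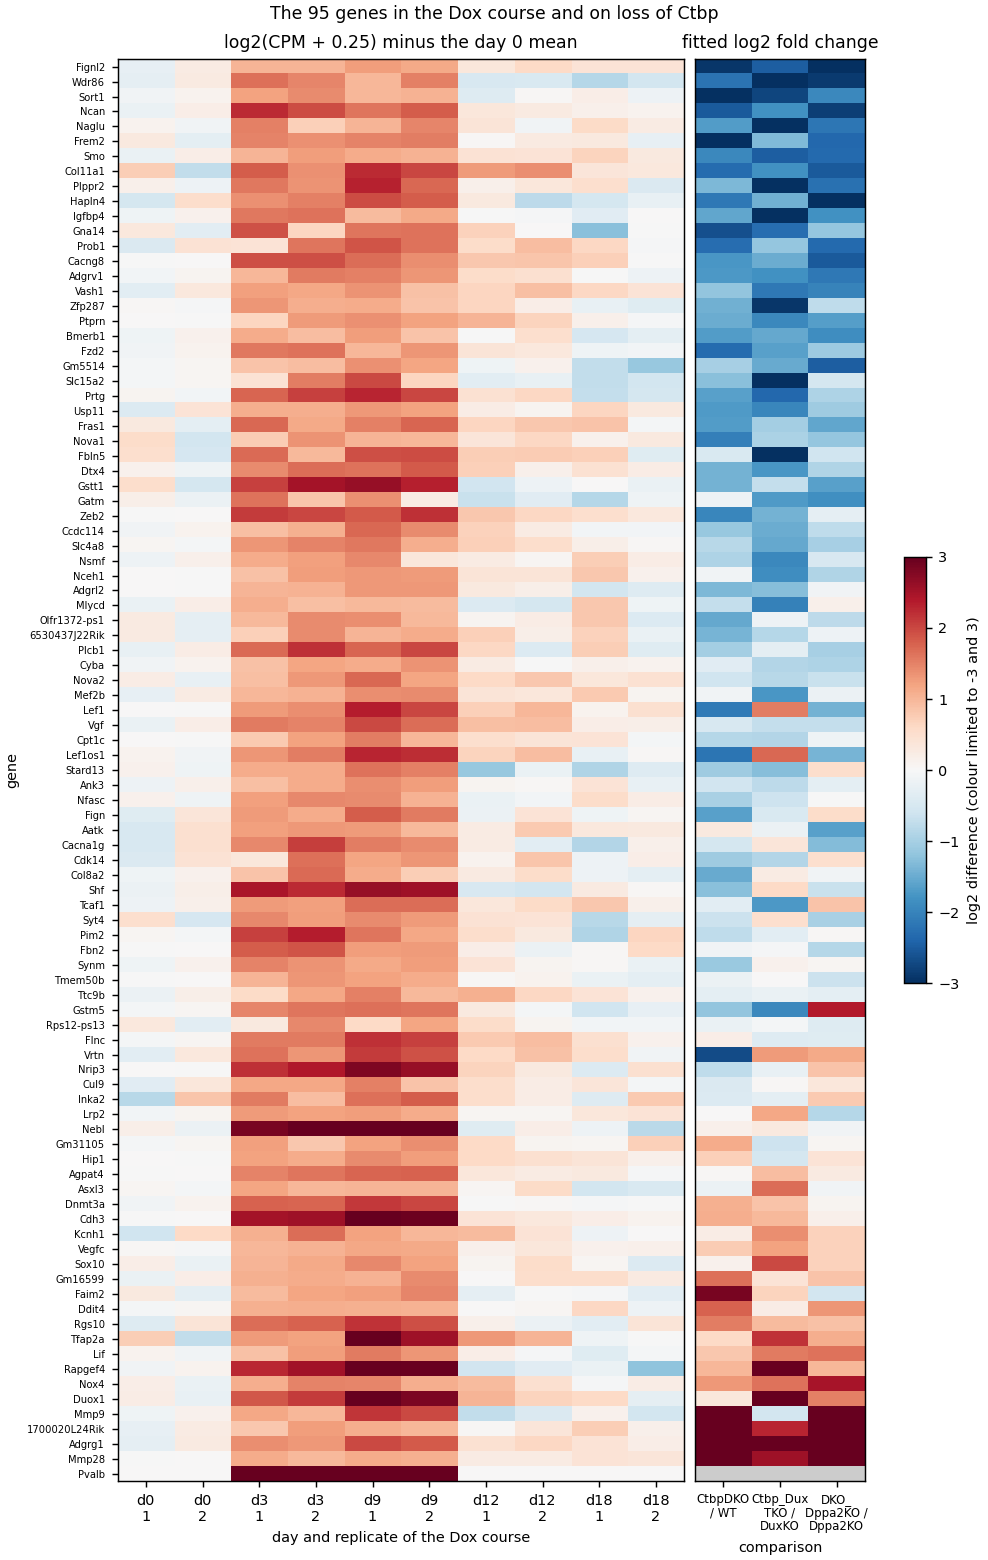
The 95 genes (rows), ordered by their mean change on loss of Ctbp. Left, log2(CPM + 0.25) minus the day 0 mean in the 10 libraries of the Dox course. Right, fitted log2 fold change in the 3 Ctbp losses, with colour limited to -3 and 3 and grey for Pvalb, which was not tested. Days 3 and 9 are redder than days 0 and 18, and the right side turns from blue at the top to red at the bottom.

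Among the receptors, Smo, the transducer of Hedgehog signals, was at 44.1 and 51.7 CPM in WT and 12.5 and 13.1 in CtbpDKO. It was at 59.3 and 61.4 in DuxKO and 9.29 and 12.9 in Ctbp_DuxTKO, and at 63.0 and 60.8 in Dppa2KO and 14.8 and 8.77 in DKO_Dppa2KO. None of these pairs overlapped, and the log2 fold changes were -1.93 (SE 0.15, adjusted p = 9.26e-07), -2.48 (SE 0.16, adjusted p = 6.47e-08) and -2.32 (SE 0.16, adjusted p = 2.27e-07) by edgeR. In the course Smo went from 10.5 and 13.8 to 24.8 and 28.9 CPM on day 3, which is 0.560 times the WT mean. Fzd2, a Wnt receptor, fell from 12.2 and 12.4 CPM in WT to 2.52 and 2.54 in CtbpDKO, with log2 fold changes of -2.31, -1.63 and -1.09 in the 3 losses. In the course Fzd2 went from 4.48 and 5.21 on day 0 to 14.9 and 15.4 on day 3, 1.23 times the WT mean. Sort1, which encodes the sorting receptor sortilin, dropped from 26.4 and 31.1 CPM in WT to 3.78 and 3.31 in CtbpDKO (log2 fold change -3.04, SE 0.14, adjusted p = 7.63e-09, edgeR). On day 3 it was at 15.7 and 18.1 CPM, from 6.17 and 7.10 on day 0. Adgrl2, a latrophilin adhesion receptor, was lower in CtbpDKO (21.7 and 23.6 CPM against 51.8 and 62.4 in WT) and without Dux (27.9 and 39.6 against 80.7 and 79.3). In the Dppa2 background it was at 35.4 and 27.5 against 37.0 and 34.5 and was not called (log2 fold change -0.10, adjusted p = 0.572, edgeR).

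Neurocan (Ncan) and the link protein gene Hapln4 sit side by side on chromosome 8, 2.22 kb apart in RefSeq GRCm38.p6, and both products bind hyaluronan in the matrix around neurons. Ncan was at 8.87 and 8.73 CPM in WT and 1.35 and 1.81 in CtbpDKO, and at 20.6 and 18.04 in Dppa2KO and 2.66 and 2.42 in DKO_Dppa2KO. Its log2 fold changes were -2.51, -1.83 and -2.83. Hapln4 was at 4.17 and 4.79 CPM in WT and 1.2 and 0.828 in CtbpDKO, with log2 fold changes of -2.16, -1.44 and -3.01. All 6 were called, and that of Hapln4 without Dux was lost without DuxKO replicate 2 or Ctbp_DuxTKO replicate 2. In the course Ncan went from 0.995 and 1.38 CPM on day 0 to 6.48 and 5.25 on day 3 and Hapln4 from 1.09 and 2.58 to 4.83 and 5.35. Frem2 and Fras1, which encode partners of the Fraser complex of basement membranes, were both lower in the 3 losses. Frem2 fell from 9.17 and 12.8 CPM in WT to 1.38 and 1.04 in CtbpDKO (log2 fold change -3.19, SE 0.28, adjusted p = 2.69e-06, edgeR) and less without Dux, where the log2 fold change was -1.31. The interaction of Ctbp loss with Dux loss was called for Frem2 (log2 difference 1.88, adjusted p = 0.00462, edgeR). Of the 13 adhesion and matrix genes, 8 were lower and 3 higher in CtbpDKO against WT. By known role, the other groups gave 7 lower and 3 higher of 12 surface receptors and secreted factors, 6 and 0 of 11 channel, transporter and vesicle genes, 4 and 0 of 7 muscle and cytoskeleton genes, 5 and 2 of 11 signalling genes, 4 and 1 of 9 transcription and chromatin genes and 3 and 0 of 11 redox and metabolism genes. These counts stand beside 47.4% lower and 14.7% higher of the 95 genes, and 11.4% and 14.7% of all genes tested, and no difference between groups was tested.

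Of the members known from neurons, Cacng8, an auxiliary subunit of AMPA receptors, was at 3.21 and 3.87 CPM in WT, 1.02 and 1.14 in CtbpDKO and 2.64 and 2.63 on day 3. Nova1, a neuronal splicing factor, was at 3.51 and 4.11 CPM in WT and 0.750 and 1.14 in CtbpDKO (log2 fold change -2.05, adjusted p = 0.000179, edgeR), and its paralogue Nova2 was not called (-0.59, adjusted p = 0.207). Prtg, which encodes the immunoglobulin superfamily protein protogenin, had 9.30 and 11.6 CPM in WT, 3.21 and 3.68 in CtbpDKO, 17.97 and 19.4 in DuxKO and 3.81 and 3.68 in Ctbp_DuxTKO. It was higher in DuxKO than in WT (log2 fold change 0.88, adjusted p = 0.0145) and lower in Dppa2KO (-1.02, adjusted p = 0.00934). The 5 neural markers summed to between 84.5 and 100.2 CPM over the course, with both ends of that range on day 18. Usp11, a deubiquitinase gene, was at 32.7 and 34.0 CPM in WT and 10.0 and 10.98 in CtbpDKO. Fignl2, a fidgetin-like gene, was at 16.4 and 18.7 in WT against 2.70 and 1.99 in CtbpDKO. Vash1, which encodes the tubulin carboxypeptidase vasohibin, was at 13.04 and 13.8 in WT against 6.09 and 5.89 in CtbpDKO. None of these WT and CtbpDKO pairs overlapped. Slc4a8, a bicarbonate transporter gene, Ccdc114, needed for ciliary dynein docking, and Dtx4, a deltex gene, were also lower in CtbpDKO, with log2 fold changes of -0.84, -1.14 and -1.41. The calls of Prtg and Dtx4 in DKO_Dppa2KO were each lost in 3 of the alternatives given in the closing section.

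Zeb2 was the only 1 of 35 listed CtBP complex genes and partners, Ctbp2 aside, to meet the rule. ZEB2 is a zinc finger repressor that binds E-boxes and recruits CtBP. It was at 1.59 and 1.64 CPM on day 0, 7.78 and 7.24 on day 3, 6.42 and 8.27 on day 9 and 3.00 and 2.61 on day 12. In the genotype table it was at 4.97 and 6.17 in WT and 1.08 and 1.87 in CtbpDKO (log2 fold change -1.95, SE 0.37, adjusted p = 0.00146, edgeR), and at 6.14 and 5.35 in DuxKO and 2.05 and 2.38 in Ctbp_DuxTKO (-1.41, adjusted p = 0.00692). Dppa2KO alone was at 1.92 and 1.19, also lower than WT (-1.81, adjusted p = 0.00480), and the further loss of Ctbp gave 2.01 and 0.557, which overlapped and was not called. Of the 35 genes, 7 were lower and 13 higher in CtbpDKO, beside 11.4% and 14.7% of all genes tested. The 7 include the disrupted genes Ctbp1 and Ctbp2, whose fall was set by the genotype, and Zeb2 itself. Of the 15 mesenchymal genes listed, 9 were at 2 CPM on day 3 and Zeb2 was the 1 to meet the rule. Of the 18 epithelial genes, 14 were at 2 CPM on day 3 and Cdh3 was the 1 to meet it. None of the 17 listed 2-cell genes met it, and 2 of the 10 at 2 CPM on day 0 were lower by a factor of 2 or more on both days 3 and 9.

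Some of the 95 were higher on days 3 and 9 and also higher on loss of Ctbp. Cdh3, which encodes P-cadherin, went from 38.9 and 40.1 CPM on day 0 to 223 and 233 on day 3 and 357 and 304 on day 9. Yet it was at 14.8 and 16.6 in WT and at 31.0 and 37.6 in CtbpDKO, so that it was higher in the loss (log2 fold change 1.09, SE 0.16, adjusted p = 0.000194, edgeR) and its day 3 mean was 14.5 times that of WT. It was at 9.96 and 12.7 in DuxKO against 19.9 and 25.4 in Ctbp_DuxTKO (log2 fold change 0.96, adjusted p = 0.000393, edgeR). It was at 18.8 and 12.8 in Dppa2KO against 16.2 and 16.5 in DKO_Dppa2KO, which overlapped, and was not called. Dnmt3a, a de novo DNA methyltransferase gene, went from 104 and 120 CPM on day 0 to 382 and 372 on day 3 and 490 and 451 on day 9. It was at 86.3 and 97.5 in WT and 193 and 202 in CtbpDKO (log2 fold change 1.07, SE 0.08, adjusted p = 7.40e-07, edgeR). It was at 110 and 112 in Dppa2KO against 117 and 103 in DKO_Dppa2KO and was not called (0.08, adjusted p = 0.511, edgeR). Ddit4, an inhibitor of mTORC1 induced by stress, was at 8.34 and 9.80 CPM in WT, 34.3 and 28.4 in CtbpDKO, 56.5 and 62.0 on day 0 and 124 and 126 on day 3.

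The 5 genes higher in all 3 losses were Adgrg1, Mmp28, 1700020L24Rik, Lif and Vegfc. Adgrg1, the adhesion receptor GPR56, was at 0.894 and 1.99 CPM in WT, 13.5 and 13.9 in CtbpDKO, 9.62 and 15.6 in Ctbp_DuxTKO and 21.1 and 16.8 in DKO_Dppa2KO, against 1.196 and 0.970 in DuxKO and 1.19 and 0.638 in Dppa2KO. Its log2 fold changes were 3.23 (SE 0.29, adjusted p = 2.99e-06), 3.49 (SE 0.30, adjusted p = 1.25e-06) and 4.46 (SE 0.31, adjusted p = 2.53e-07) by edgeR, and it was at 32.8 and 30.7 CPM on day 3, 22.0 times the WT mean. Mmp28, a matrix metalloprotease gene, was at 0.364 and 0.274 CPM in WT, 7.41 and 7.94 in CtbpDKO and 15.3 and 13.9 on day 3. The annotated span of 1700020L24Rik overlaps that of Mmp28 on chromosome 11, so reads of the pair could be split between them, and their log2 fold changes in CtbpDKO were 3.61 and 4.54. Lif, the cytokine that is also added to the medium, was at 2.19 and 2.12 CPM in WT, 3.87 and 3.90 in CtbpDKO and 8.67 and 11.2 on day 3. Vegfc, the lymphatic growth factor, was at 10.7 and 10.6 in WT, 16.7 and 20.6 in CtbpDKO and 29.4 and 30.5 on day 3. The Lif call in CtbpDKO was lost without WT replicate 2 or CtbpDKO replicate 1. For each of the 5, both CtbpDKO libraries lay above both WT libraries, and the day 3 libraries lay above CtbpDKO, across separate tables.

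**Figure D4:**
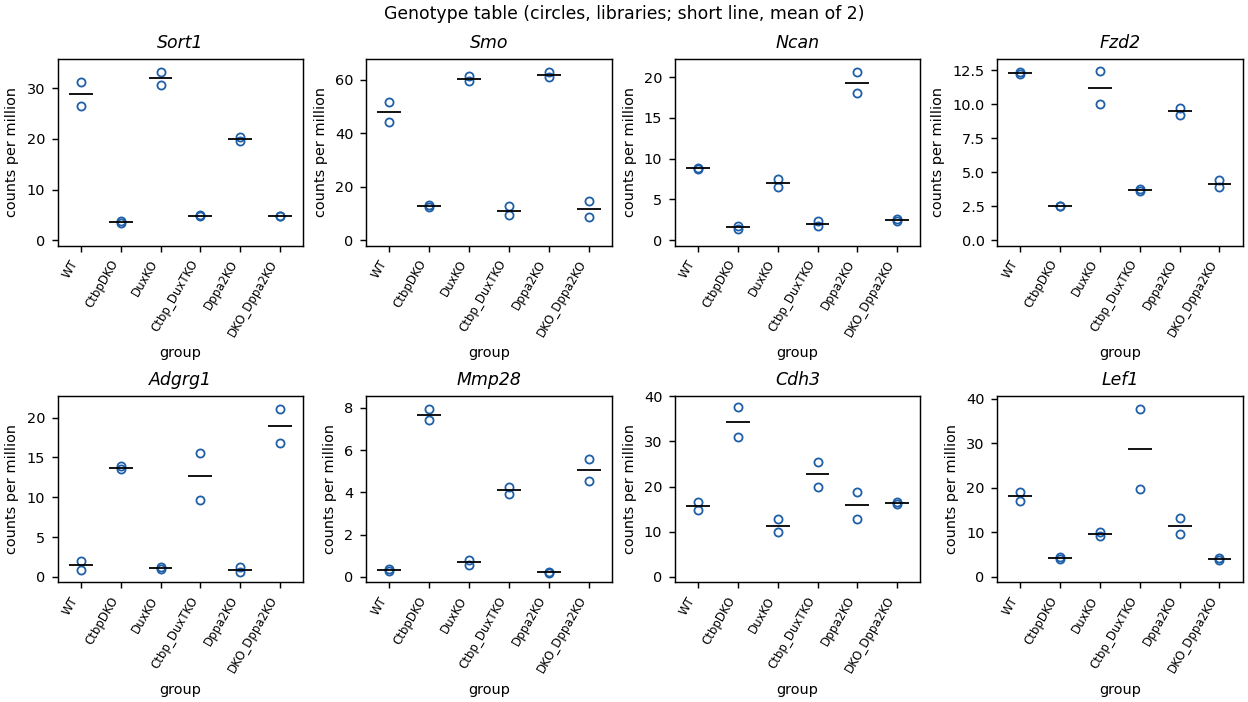
CPM (y axis) of 8 of the 95 genes in the 6 groups of the genotype table (x axis). Circles are libraries and short lines are means of 2. In the top row each group without Ctbp lies below its control. Below, Adgrg1 and Mmp28 lie above it in each pair, Cdh3 does so with and without Dux, and Lef1 changes side without Dux.

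For some genes the effect of Ctbp loss was called different in the libraries without Dux. The interaction term was positive for 12 of the 95 genes and negative for 13 at an adjusted p under 0.05 (12.6% and 13.7%, beside 9.82% and 9.64% of all genes tested, edgeR). Without WT replicate 1, 8 were negative. The shares were not far above those of all genes, so the genes below are single cases and not a trait of the set. The summed primitive endoderm markers, at 3.49 to 3.58 CPM in DuxKO and 56.4 to 57.1 in Ctbp_DuxTKO, were lowest and highest there of the 6 groups, and their part in the interactions was not tested. Lef1, a nuclear effector of Wnt signalling, was at 17.1 and 19.1 CPM in WT and 4.11 and 4.36 in CtbpDKO, but at 9.96 and 9.10 in DuxKO and 19.7 and 37.8 in Ctbp_DuxTKO. The log2 fold change was -2.12 with Dux and 1.54 without, and the difference was 3.67 (SE 0.32, adjusted p = 7.77e-06) by edgeR. Lef1os1, named as its antisense gene, moved alongside and cannot be told apart from it where strand was not used in counting. Duox1 and Shf are neighbours on chromosome 2, 0.920 kb apart. Duox1, a dual oxidase that makes hydrogen peroxide, was at 0.530 and 0.479 CPM in WT and 0.660 and 0.644 in CtbpDKO, but at 0.0996 and 0.134 in DuxKO and 1.46 and 2.60 in Ctbp_DuxTKO (log2 difference 3.69, adjusted p = 0.00451). In the DuxKO libraries 3 counts are 0.0996 and 0.100 CPM, so Duox1 was at or near the floor there and the size of its difference is uncertain. Shf, an SH2 domain adaptor gene, fell from 11.7 and 14.8 in WT to 5.76 and 5.49 in CtbpDKO, but was at 5.31 and 5.55 in DuxKO and 8.28 and 8.66 in Ctbp_DuxTKO (log2 difference 1.87, adjusted p = 8.96e-05). Rapgef4, which encodes the cAMP-activated exchange factor Epac2, was at 0.761 and 1.64 CPM in WT, 2.28 and 2.58 in CtbpDKO, 0.664 and 0.268 in DuxKO and 3.47 and 4.01 in Ctbp_DuxTKO (log2 difference 1.96, adjusted p = 0.0333).

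The other interactions among the named genes ran both ways. Lrp2, the endocytic receptor megalin, was at 116 and 118 CPM in WT and 112 and 128 in CtbpDKO, which overlapped, but at 97.9 and 103 in DuxKO and 228 and 233 in Ctbp_DuxTKO. It was lower in DKO_Dppa2KO (62.5 and 46.2) than in Dppa2KO (91.8 and 118, log2 fold change -0.87, adjusted p = 0.000174). Agpat4, an acyltransferase gene, was at 13.7 and 14.1 CPM in CtbpDKO beside 12.9 and 13.6 in WT, and at 20.2 and 21.6 in Ctbp_DuxTKO beside 10.9 and 10.7 in DuxKO. Mef2b, a MADS-box transcription factor gene, was at 5.35 and 4.80 CPM in Ctbp_DuxTKO against 16.8 and 16.6 in DuxKO, and at 18.7 and 16.3 in CtbpDKO against 18.5 and 18.3 in WT. Hip1, an endocytic adaptor gene, was higher in CtbpDKO than in WT (0.70) and lower in Ctbp_DuxTKO than in DuxKO (-0.54). Gstm5, Tcaf1 and Vrtn were also lower in one loss and higher in another. In DKO_Dppa2KO the Tcaf1 call was lost in 7 alternatives, the Vrtn call without Dppa2KO replicate 1 or DKO_Dppa2KO replicate 1 and the Gstm5 call without DKO_Dppa2KO replicate 2. The Gstm5 call in CtbpDKO was lost in 5. Vrtn, the vertnin gene, was at 3.05 and 2.57 CPM in WT and 0.480 and 0.399 in CtbpDKO but at 2.33 and 1.87 in DuxKO and 5.56 and 4.76 in Ctbp_DuxTKO.

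Signalling and enzyme genes of the set gave mixed values. Plcb1, a phospholipase activated by Gq proteins, was at 0.746 and 1.12 CPM on day 0 and 3.53 and 5.11 on day 3, and at 1.79 and 2.12 in WT and 0.930 and 1.04 in CtbpDKO without a call (log2 fold change -1.01, adjusted p = 0.0600, edgeR). Gna14, a Gq-class alpha subunit, was lower in CtbpDKO (0.540 and 0.981 against 3.87 and 5.41 CPM, -2.64, adjusted p = 0.00254). Nox4, an NADPH oxidase, and Cyba, its partner p22phox, both met the rule, Nox4 from 1.54 and 1.12 to 3.08 and 4.11 CPM and Cyba from 3.93 and 4.65 to 8.05 and 10.0. In Ctbp_DuxTKO against DuxKO they went opposite ways, with log2 fold changes of 1.62 (adjusted p = 0.0315) and -0.89 (adjusted p = 0.0177) by edgeR. Each call was lost without DuxKO replicate 2 and by DESeq2, that of Nox4 also without DuxKO replicate 1 or Ctbp_DuxTKO replicate 2 and that of Cyba without Ctbp_DuxTKO replicate 1. Pim2, a serine and threonine kinase gene, was at 6.02 and 5.51 CPM on day 0, 24.8 and 30.6 on day 3, 18.02 and 13.2 on day 9 and 2.98 and 9.08 on day 18. Its day 18 libraries lay on either side of day 0. Nrip3, Gstt1 (a glutathione transferase) and Cacna1g (a T-type calcium channel) were among the 15 largest ratios on day 3 and were called in none of the losses. Nrip3 was at 4.29 and 4.96 CPM on day 3 and 0.629 and 0.959 in WT. Gstt1 was at 4.61 and 6.34 on day 3 and 0.927 and 0.856 in WT, and Cacna1g at 1.83 and 2.97 on day 3 and 0.364 and 0.479 in WT. Tfap2a, a neural crest factor, was mainly high on day 9 (13.1 and 8.02 CPM, after 3.17 and 3.02 on day 3).

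The remaining comparisons are between cells that keep both Ctbp genes. In DuxKO against WT, genotype libraries, 5 genes were lower and 14 higher (5.26% and 14.7%, beside 9.56% and 7.94% of all genes tested, edgeR). In the Pramel7 table the same comparison, with other libraries, gave 16 lower and 19 higher (beside 8.91% and 7.76%). The filter there kept 93 of the 95, since Pvalb had no counts and Gm5514 has no row. Some genes differed between the 2 tables: Ddit4 was higher in DuxKO in the first (23.2 and 27.9 CPM against 8.34 and 9.80 in WT) and lower in the other (13.9 and 16.6 against 28.6, 33.1, 38.5 and 37.8). Zeb2 was not called in DuxKO of the first and was higher in the other (9.07 and 10.7 CPM against 2.66, 3.39, 1.85 and 2.50, log2 fold change 1.99, adjusted p = 7.96e-05, edgeR). Pim2 was at 10.4 and 12.2 CPM in WT of the first and at 69.7, 80.1, 73.3 and 67.2 in WT of the other. In Dppa2KO against WT 19 were lower and 9 higher (beside 8.69% and 7.67%). Gstm5, a glutathione transferase gene, had the lowest log2 fold change of the 95 there and fell from 1.66 and 2.16 CPM in WT to 0.113 and 0.167 in Dppa2KO (log2 fold change -3.70, SE 0.46, adjusted p = 0.000238, edgeR). In the Dppa2KO libraries 3 counts are 0.0846 and 0.0833 CPM, so Gstm5 was near the floor there and the size of its fall is uncertain. These comparisons share WT libraries with each other. Several counts were smaller with 1 library left out. Leaving out a library can lower the calls of all genes tested. The counts that follow have no share of all genes beside them, so a general fall cannot be told apart from one of the 95. In the genotype table, DuxKO had 2, 1 and 1 genes lower without WT replicate 1, WT replicate 2 and DuxKO replicate 2, and 5, 7 and 8 higher without WT replicate 1, DuxKO replicate 1 and DuxKO replicate 2. Dppa2KO had 10 or 11 lower without any 1 of its 4 libraries, and 5 higher without Dppa2KO replicate 1 or either WT library. In the Pramel7 table DuxKO had 8 and 7 lower without DuxKO replicates 3 and 4, and 9 higher without either.

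In P7OE against WT 19 genes were lower and 14 higher (beside 8.9% and 11% of all genes, edgeR). In DuxKO_P7OE against DuxKO 10 were lower and 19 higher (beside 9.83% and 11.6%). In P7KO against WT 17 were lower and 2 higher (17.9% and 2.11%, beside 5.55% and 3.93%). Dnmt3a was at 103, 120, 114 and 103 CPM in the 4 WT libraries, 246 and 251 in P7OE, 221 and 244 in DuxKO_P7OE and 34.6 and 38.6 in P7KO. No group overlapped another across WT, P7OE and P7KO, and the log2 fold changes were 1.17 (SE 0.12, adjusted p = 4.64e-05) and -1.73 (SE 0.14, adjusted p = 1.13e-05) by edgeR. Fignl2 was at 12.99, 13.1, 13.9 and 14.1 CPM in WT, 57.2 and 49.2 in P7OE and 14.7 and 14.9 in P7KO, and was called in P7OE (1.96, adjusted p = 5.26e-07). Mmp28 was at 0.432, 0.598, 0.559 and 0.446 in WT and 2.46 and 2.17 in P7OE. Frem2 went the other way, from 14.02, 14.8, 20.1 and 22.5 CPM in WT to 5.14 and 4.16 in P7OE (log2 fold change -1.94, adjusted p = 7.52e-05). Pim2 was lower than WT in each of the other groups, at 16.7 and 16.8 CPM in DuxKO, 19.7 and 19.7 in P7OE and 18.8 and 14.98 in P7KO. Vrtn likewise was at 25.7, 23.9, 23.0 and 19.1 CPM in WT, 4.81 and 3.84 in DuxKO, 10.5 and 9.90 in P7OE and 7.20 and 5.16 in P7KO. Flnc and Hip1 were lower in P7KO, with log2 fold changes of -1.62 and -1.41.

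**Figure D5:**
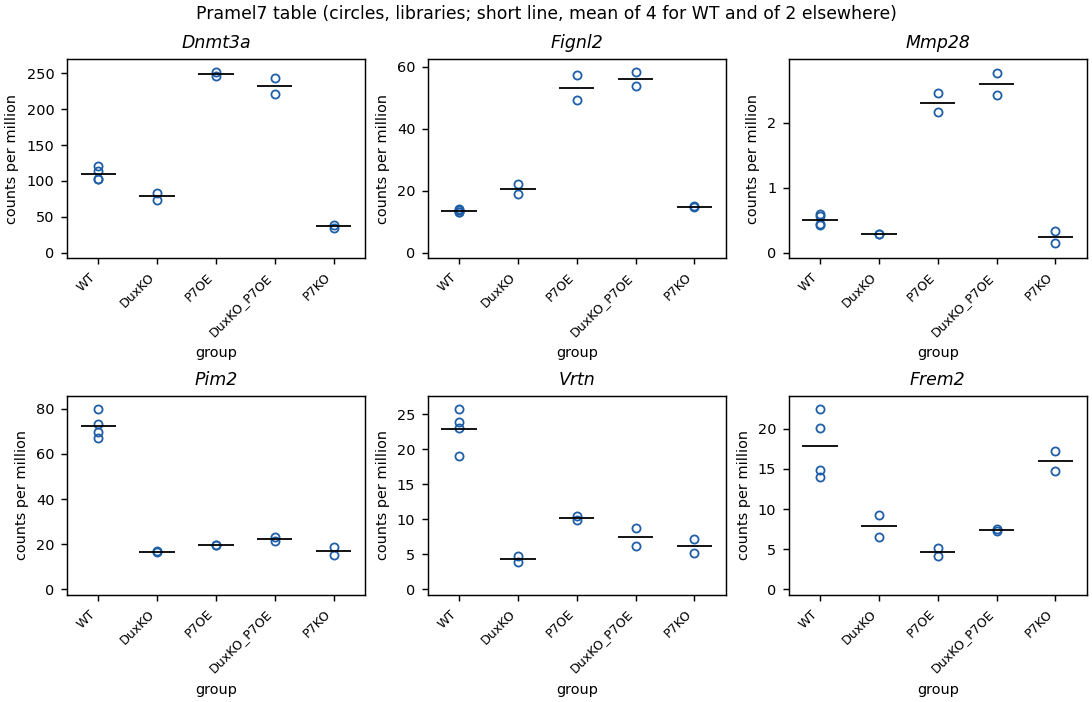
CPM (y axis) of 6 of the 95 genes in the 5 groups of the Pramel7 table (x axis). Circles are libraries and short lines are group means. Dnmt3a is highest in P7OE and DuxKO_P7OE and lowest in P7KO, and Pim2 and Vrtn are highest in WT.

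Markers of other cell types differed between these groups. The 6 mesoderm and muscle markers summed to 10.1 to 19.5 CPM in WT, 2.17 to 3.33 in DuxKO, 0.645 to 0.730 in P7OE, 0.541 to 1.98 in DuxKO_P7OE and 1.21 to 2.06 in P7KO, with 2 to 4 of the 6 at or under 3 counts. The 4 primitive endoderm markers summed to 2.73 to 4.38 CPM in WT, 3.59 to 3.68 in DuxKO, 30.4 to 34.7 in P7OE, 30.1 to 32.6 in DuxKO_P7OE and 3.56 to 3.70 in P7KO, with none at or under 3 counts. In P7KO the 5 neural markers summed to 71.3 to 75.0 CPM against 114 to 139 in WT, and the 8 feeder fibroblast markers to 1.28 to 2.61 against 4.39 to 6.06. The mesoderm and muscle sums were highest in WT, as were Pim2 and Vrtn, and the primitive endoderm sums were highest with Pramel7 overexpressed, as were Dnmt3a, Fignl2 and Mmp28. Their part in the values of the 95 genes was not tested.

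In the Pramel7 table the 4 WT libraries were not alike for every gene. Lrp2 was at 60.3, 73.1, 123 and 139 CPM in WT libraries 3 to 6, and Smo at 48.8, 59.7, 36.2 and 32.7. The counts that follow, with libraries left out, also have no share of all genes beside them and are not read as a trait of the 95. Without P7OE replicate 1 or 2, P7OE had 8 genes lower, and without replicate 2 it had 9 higher. Without P7KO replicates 1 and 2, P7KO had 7 and 9 lower, and without WT library 6 it had 4 higher. DuxKO_P7OE had 5 lower without either DuxKO library and 6 without DuxKO_P7OE replicate 2, and 12, 9 and 11 higher without DuxKO replicate 3, DuxKO replicate 4 and DuxKO_P7OE replicate 2. With WT libraries 3 and 4 as the only controls, an alternative chosen after seeing the data, P7KO had 33 genes lower and 6 higher, and with 5 and 6 it had 16 and 3. Of the 95 genes, 91 were matched to the RefSeq gene table and 88 are protein-coding there. They lie on 19 chromosomes with at most 11 on one, chromosome 2.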

How the data were processed

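Raw counts per gene symbol were deposited by the authors as 3 tables without normalization. The submitters' processing notes name Trim Galore, HISAT2, featureCounts and the build mm10, and the labels' protocols name a stranded library kit. The annotation and the strand setting of the counting are not given in the sources used here, so overlapping and antisense genes are uncertain. Every column matched 1 labelled sample, and 0 columns were left over. Date-like symbols stayed in as unnamed features. The 6 bisulfite libraries were not analysed here. CPM are counts over the column total times 1000000, computed here. Differences were tested with the edgeR 4.0.16 quasi-likelihood F test in R 4.3.3, with filterByExpr, TMM scaling and 1 fit per table, and were called at a Benjamini-Hochberg adjusted p under 0.05 over all genes tested. The prior count of the fit was 0.125. DESeq2 1.42.0 was an alternative. The test was tried on simulated counts, where it called 52.5% of genes set at a 2-fold change in CtbpDKO against WT and 0.0597% of unchanged ones. Only 101 genes were set at this change and 95 at a larger one, of 20286. In the data 11.4% were called lower and 14.7% higher, so these rates may not carry over.

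The set, the gene lists and the role groups were chosen with earlier results of these data known. The rule for named genes took Ctbp1, Ctbp2, Pvalb and Nebl, then the 15 largest day 3 ratios, the 10 highest day 3 means, up to 10 genes lower in all 3 Ctbp losses, up to 5 called higher in any of them, and the 2 genes nearest each threshold on either side, leaving predicted and clone symbols out of the ranked choices. Further members were named after their values were seen. Promoter sequences and positions come from RefSeq tables of GRCm38.p6, matched by symbol. Replicate numbers did not pair the libraries.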

Additional observations from a re-analysis of the deposited data

Results flagged for a closer look

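In the 4 WT libraries of the Pramel7 table, 7 of the 93 genes with counts there had 1 library far from the others, measured as its gap to the nearest library over the whole range, which passed Dixon's limit for 4 samples. Chance alone passes it in about 1 of 20 groups. The ratio was 0.914 for Cdh3, 0.902 for Gna14 and 0.830 for Gstt1, where WT library 5 was highest. It was 0.884 for Cdk14 and 0.848 for Prtg, where WT library 4 was highest, and 0.882 for Rps12-ps13 and 0.857 for Col11a1, where WT library 6 was highest.

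The log2 effect of Ctbp loss was called different without Dux (edgeR interaction term, adjusted p under 0.05) for 25 of the 95 genes. The interaction was positive for 12 (12.6%) and negative for 13 (13.7%), beside 9.82% and 9.64% of all genes tested. These shares were not far above those of all genes. The effect without Dux minus that with Dux was 3.96 for Vrtn, 3.90 for Lef1os1, 3.67 for Lef1, 3.69 for Duox1, 1.96 for Rapgef4, 1.88 for Frem2, 1.87 for Shf, 1.86 for Asxl3, 1.78 for Col8a2, 1.24 for Synm, 1.16 for Lrp2 and 0.88 for Agpat4. It was -4.02 for Mmp9, -1.99 for Mmp28, -1.76 for Nceh1, -1.73 for Gm31105, -1.69 for Plppr2, -1.65 for Mef2b, -1.56 for Igfbp4, -1.55 for Ddit4, -1.40 for Tcaf1, -1.32 for Mlycd, -1.24 for Hip1, -0.96 for Vash1 and -0.59 for Flnc.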

How the results depend on the processing

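The 3 Ctbp losses kept their counts of the 95 genes within 1.5 times under every alternative run: DESeq2, upper quartile scaling, no low-count filter, only the groups compared, the replicate block and leaving out each library. Lower genes ran from 37 to 47 in CtbpDKO against WT, 37 to 46 in Ctbp_DuxTKO against DuxKO and 29 to 34 in DKO_Dppa2KO against Dppa2KO. The set itself depends more on the rule: it held 54 genes with a day 3 floor of 5 CPM, 24 at 3 times day 0, and 39 when every library had to pass. Of those, 27, 12 and 18 were lower in CtbpDKO against WT. Leaving out 1 library of the course gave 77 to 114 genes, with 33 to 52 lower in CtbpDKO, and 35 of the 95 stayed in all 8 such sets. Without day 0 replicate 1, 57 of the 95 stayed. In the tests that follow, leaving out a library can lower the calls of all genes tested. These counts have no share of all genes beside them, so a general change cannot be told apart from one of the 95. Leaving out 1 library gave 8 to 12 genes with a negative interaction (8 without WT replicate 1). In DuxKO against WT of the genotype table it gave 1 to 4 lower and 5 to 10 higher, and no filter gave 8 lower. In Dppa2KO against WT it gave 10 to 11 lower and 5 to 7 higher. In the Pramel7 table it gave 7 to 18 lower and 9 to 21 higher in DuxKO, where leaving out DuxKO replicate 3 or 4 gave the lowest counts, 8 to 20 and 9 to 18 in P7OE, with the fewest lower without either P7OE library, 5 to 7 and 9 to 13 in DuxKO_P7OE against DuxKO, and 7 to 21 and 2 to 4 in P7KO, with 7 and 9 lower without P7KO replicate 1 and 2. DuxKO_P7OE against DuxKO had 17 lower with only the groups compared, and P7KO had 4 higher with no filter. With WT libraries 3 and 4 as controls, chosen after seeing the data, P7KO had 33 lower and 6 higher. Replicate numbers did not pair the libraries (correlations of same-numbered deviations from -0.0983 to 0.0646). The replicate block gave 44, 44 and 32 lower in the 3 losses and moved no count by over 1.5 times. P7OE, P7KO and DuxKO_P7OE share no numbers with their controls, so no paired analysis was possible there. Of the 167 calls of single genes in the 3 losses, 38 were lost in at least 1 alternative and 0 reversed. Those lost most often were Kcnh1 without Dux (8 alternatives), Duox1 (8) and Tcaf1 (7) with Dppa2 disrupted, Stard13 in CtbpDKO (7) and Flnc without Dux (6). Genes under 5 CPM, 41 of the 95, are limited by depth.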

Other observations

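A further 32 genes were at least 2 times day 0 on days 3 and 9 and stayed above 1.5 times on day 18. Their median ratio to day 0 was 1.85 on day 12 and 2.02 on day 18, and 18 of the 32 were above 1.5 times on day 12. The rule fixed their day 18 values, so only day 12 was free.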
